A study of Mus musculus with 30 samples.

Results

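The genes described are 55 genes whose products form synaptic vesicles, the SNARE release machinery, the active zone and the endocytic proteins that recover vesicles. They were chosen by name, for their role at the terminal, with earlier results of these data known, from the 49315 genes of the count table, and all 55 were among the 16486 genes with enough counts to test. The lowest count of any of them in any mouse was 81. They were measured by RNA sequencing of hippocampi from 30 mice of strain C57BL/6J. There were 13 TIMP2 knockout (KO) mice, 7 females and 6 males, and 17 wild-type (WT) mice, 7 females and 10 males. The knockout is global, so every cell type carries it from conception, and the study used littermates as controls. The age of these mice was not given in the sources used here. The study asked how loss of TIMP2, a secreted inhibitor of metalloproteinases, alters the hippocampal transcriptome, and the comparison below asks whether presynaptic transcripts differed between TIMP2 KO and WT mice.

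At a presynaptic terminal, vesicles are loaded with transmitter by vesicular transporters and tethered at the active zone by large scaffold proteins such as Bassoon, Piccolo, RIM and liprin-α. Munc13 proteins prime them, and the SNAREs synaptobrevin, syntaxin and SNAP25 zip together to fuse vesicle and plasma membrane when calcium binds synaptotagmin. NSF and its SNAP adaptors then take the SNARE complexes apart, and dynamin, amphiphysin, endophilin and synaptojanin recover the membrane. In the hippocampus these genes are transcribed in cell bodies of granule cells, pyramidal cells and interneurons, while the terminals of inputs from other brain regions keep their transcripts outside the dissected tissue. In bulk tissue, fewer cells of a type and less RNA per cell cannot be told apart.

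Reads counted on genes numbered 18345517 to 41081083 per TIMP2 KO mouse and 19445246 to 32098386 per WT mouse, and levels are given as CPM, the count of a gene scaled to a common library size. Timp2 itself was at 158 ± 10.5 CPM (SD, n = 13) in TIMP2 KO and 317 ± 39.8 CPM (SD, n = 17) in WT mice, with no overlap between the genotypes. The count is over the whole gene, so it does not separate deleted from remaining exons. Marker genes of granule cells, CA1 and CA3 pyramidal cells and interneurons were all detected. Of the marker lists, 3 had several genes past an unadjusted p under 0.05 between genotypes. Higher in TIMP2 KO mice were 6 of 8 choroid plexus genes tested and 10 of 15 immediate early genes, against 2.47% of all genes. Lower were 5 of 12 dentate gyrus granule cell genes, against 2.56%. No other cell type list had more than 1 gene past this threshold in either direction. The summed level of the choroid plexus list (13 genes, 8 tested) was 136 to 1159 CPM (median 168) in TIMP2 KO and 130 to 183 CPM (median 162) in WT mice. For the immediate early list it was 519 to 1090 CPM (median 709) in TIMP2 KO and 461 to 998 CPM (median 555) in WT mice. The summed level of the granule cell list was 749 to 938 CPM in TIMP2 KO and 799 to 1160.3 CPM in WT mice. For the 7 general neuronal markers the median log2 fold change was 0.013, with 1 of 7 higher.

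To compare genes with each other, CPM was divided by the exon length of the gene in kb. On this scale the presynaptic genes spanned 0.79 to 428 CPM per kb in WT mice (means of n = 17). Most abundant was Cplx2, a complexin that clamps and assists SNARE-driven fusion, at 428 ± 18.1 CPM per kb (SD). Next came the plasma membrane SNARE Snap25 at 357 ± 12.4, the glutamate transporter Slc17a7 (VGLUT1) at 302 ± 14.6, the vesicular SNARE Vamp2 at 259 ± 6.01 and Cplx1 at 255 ± 12.7 CPM per kb. These are the core of the release machinery of forebrain glutamatergic terminals. The least abundant were Syn3 at 0.79 ± 0.128, Unc13b at 1.62 ± 0.102, Cplx3 at 2.04 ± 0.35, Sv2c at 2.42 ± 0.334 and Slc17a6 (VGLUT2) at 3.05 ± 0.703 CPM per kb.

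**Figure D1:**
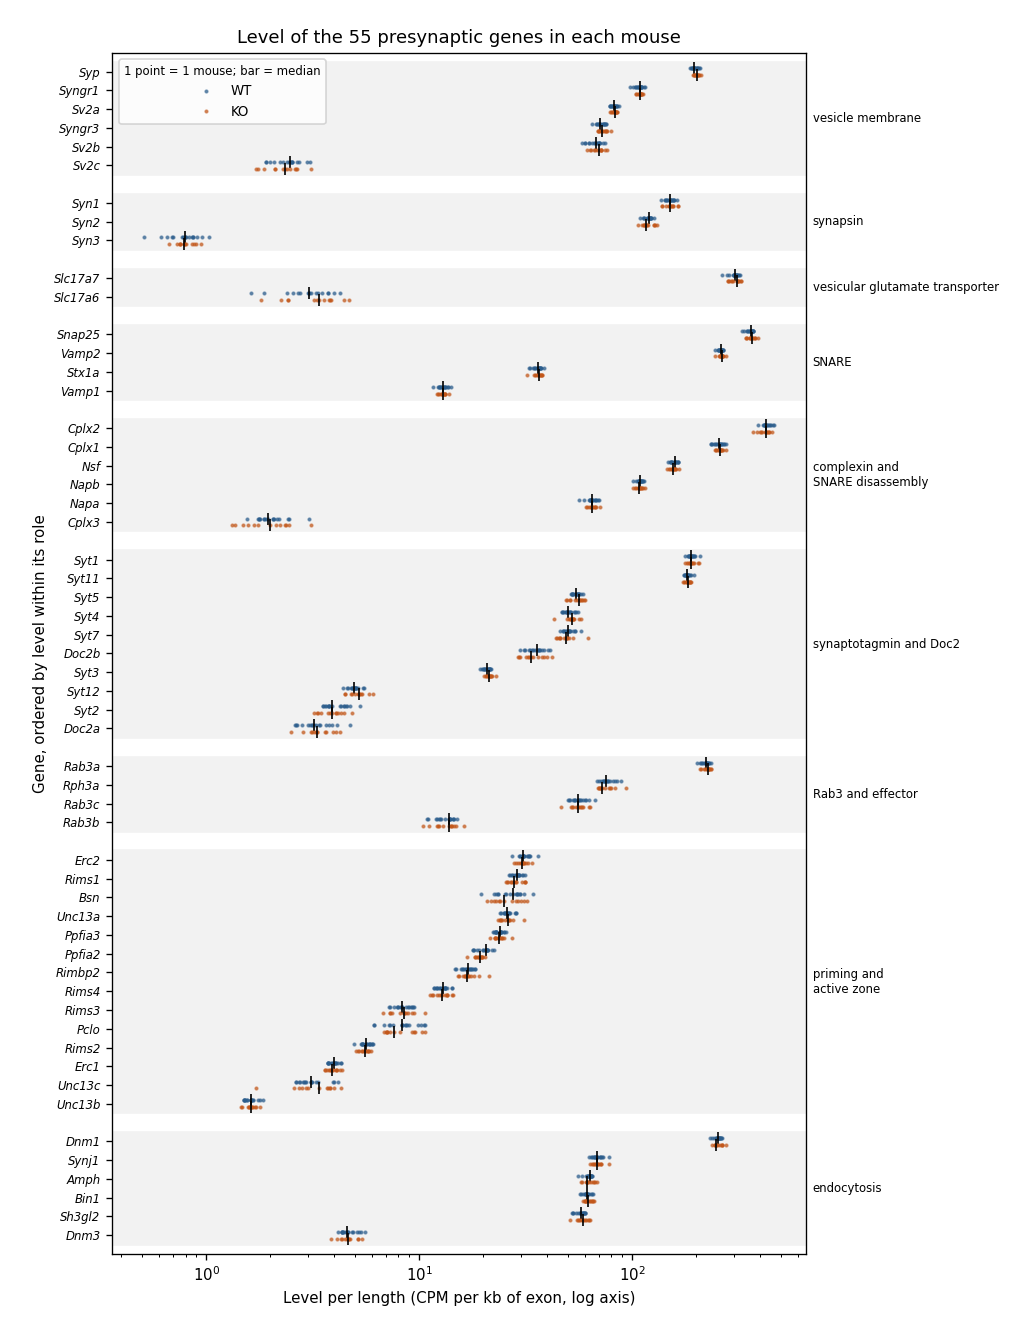
Level of each of the 55 genes in CPM per kb of exon (log axis), with 1 point per mouse for WT (blue, n = 17) and TIMP2 KO (orange, n = 13), a bar at the median, and genes grouped by role. WT means run from 0.79 CPM per kb for Syn3 to 428 for Cplx2, and the points of both genotypes lie over each other for all 55 genes.

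Within gene families, 1 paralog usually dominated, and the order was the same in all 30 mice for each of the 20 pairs examined. Among vesicle membrane proteins, synaptophysin (Syp) stood at 197 ± 5.94 CPM per kb, above Syngr1 (108), Sv2a (82), Syngr3 (71.4) and Sv2b (66.7). SV2 proteins are vesicle glycoproteins, and Sv2b exceeded Sv2c by a median of 28.2 (range 20.2 to 40.8)-fold. The synapsins, which hold vesicles in the reserve pool, were led by Syn1 at 150.3 ± 6.7 CPM per kb, with a Syn1 to Syn2 ratio of 1.28 (range 1.07 to 1.45) and a Syn1 to Syn3 ratio of 186 (range 152 to 268). Slc17a7 exceeded Slc17a6 by 92.3 (range 62.9 to 190.0)-fold. Slc17a7 is the transporter of cortical and hippocampal excitatory neurons and Slc17a6 that of most subcortical ones.

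Of the SNAREs, Vamp2 exceeded Vamp1 by 20 (range 18.7 to 22.5)-fold, and Stx1a was at 35.9 ± 1.57 CPM per kb. The ATPase Nsf, which disassembles SNARE complexes, was at 157 ± 5.22 CPM per kb, and of its adaptors Napb (β-SNAP) exceeded Napa (α-SNAP) by 1.67 (range 1.43 to 1.89)-fold. The fast calcium sensor Syt1 was at 189.9 ± 7.2 CPM per kb and exceeded Syt2, the fast sensor of many hindbrain and parvalbumin synapses, by 49.3 (range 35.5 to 58.9)-fold. Syt11, a synaptotagmin that does not bind calcium, reached 182 CPM per kb. Syt5, Syt4 and Syt7 followed at 54.6, 50.5 and 50.4 CPM per kb. Doc2b, a high-affinity calcium sensor of spontaneous release, was at 35.3 CPM per kb, and the Doc2a to Doc2b ratio was 0.0968 (range 0.0591 to 0.145).

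The small GTPase Rab3a, which docks vesicles, was at 221 ± 8.07 CPM per kb and exceeded Rab3c by 4.07 (range 3.22 to 4.48)-fold and Rab3b by 16.5 (range 13.5 to 20)-fold. Its effector rabphilin (Rph3a) was at 76.6 CPM per kb. The 14 priming and active zone genes were lower as a group, between 1.62 (Unc13b) and 31.2 (Erc2, also called CAST) CPM per kb. Of the Munc13 genes, Unc13a exceeded Unc13b by 16 (range 14 to 17.6)-fold and Unc13c by 8.61 (range 5.59 to 18.1)-fold. Rims1 exceeded Rims2 by 5.18 (range 4.54 to 5.86)-fold, and Erc2 exceeded Erc1 by 7.82 (range 6.84 to 9.07)-fold. The narrowest margin in this role was that of the liprins, where Ppfia3 exceeded Ppfia2 by 1.21 (range 1.02 to 1.45)-fold. Among the endocytic genes, neuronal dynamin (Dnm1) was at 252 ± 8.69 CPM per kb and exceeded Dnm3 by 55.2 (range 43.3 to 68.3)-fold, while Synj1, Amph, Bin1 and Sh3gl2 lay between 57.3 and 68.6 CPM per kb.

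The spread between mice was narrow for most of these genes. The coefficient of variation over the 17 WT mice ranged from 2.32% (Vamp2) to 23% (Slc17a6), with a median of 5.06% against 8.16% over all genes tested. Syt11, Napb, Syp and Sv2a varied by 2.88%, 2.89%, 3.01% and 3.05%. The widest after Slc17a6 were Cplx3 and Doc2a (17.1% and 17.1%), the giant scaffold Pclo (16.8%), Syn3 (16.3%) and Unc13c (15%), followed by Bsn and Sv2c at 13.8% and 13.8%. Genes of low level were among the most variable, but Pclo and Bsn were not of low level, with CPM medians in WT mice of 187 and 442.

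The levels of Bsn and Pclo followed the mouse numbers in the labels. In the 12 mice numbered 1 to 12, Bsn was at 310.0 to 406 CPM (median 365) and Pclo at 138 to 171 CPM (median 158). In the 18 mice numbered 14 to 32, Bsn was at 376 to 543 CPM (median 462) and Pclo at 159 to 239 CPM (median 205), and 16 and 17 of these 18 were above every mouse of the first set. Mouse 25, a TIMP2 KO female, was within the first set's range for both genes. The mean log2 CPM was higher in the later set by 0.34 for Bsn and 0.39 for Pclo, beside a median absolute difference of 0.044 over the 55 genes and 0.05 over all genes. The next largest differences (later minus first) were 0.21 for Syn3, -0.16 for Rab3b and 0.16 for Sv2c. Doc2a followed at -0.15, and Cplx3 and Slc17a6 both at -0.14. After these came Dnm3 at 0.12, Unc13a at 0.11 and Ppfia2 at 0.10. Rab3a had a difference of -0.071. The mean of the granule cell list was 5.66 ± 0.107 in the first set (n = 12) and 5.79 ± 0.137 in the later set (n = 18). The labels do not say what the numbers stand for. The split was chosen after these values were seen, so the difference between the sets was not tested. Later fits that use the split carry the same limit. The first set held 6 TIMP2 KO and 6 WT mice, and the later set 7 and 11.

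RefSeq promoter windows on GRCm38.p6, from 250 bases before to 50 bases after the start of a gene, were held for 42 of the 55 genes, and 4 motifs were searched in them on both strands. The repressor REST, which silences neuronal genes outside neurons, binds the RE1 element. An exact match to part of it (TTCAGCACC) was found in 3 of the 42 windows (7.14%), those of Syn1, Ppfia3 and Unc13a, against 0.54% of the 12032 tested genes with a window. A full cAMP response element (TGACGTCA) was in the windows of Napa, Sh3gl2 and Syn1 (7.14% against 3.42%). The GC box (GGGCGG) was in 32 windows (76.2% against 66.2%) and TATAAA in those of Rab3b and Sv2b (4.76% against 8.98%). No motif contains another. The 3 windows with the RE1 letters are shown because they carry the sequence that names the REST element, and that of Ppfia2 because it is the gene that passed the test between genotypes below. Capitals mark the RE1, cAMP response and GC box letters on either strand, and each sequence reads 5′ to 3′ on the strand of its gene.
Syn1 (chrX:20920869-20921168, minus strand): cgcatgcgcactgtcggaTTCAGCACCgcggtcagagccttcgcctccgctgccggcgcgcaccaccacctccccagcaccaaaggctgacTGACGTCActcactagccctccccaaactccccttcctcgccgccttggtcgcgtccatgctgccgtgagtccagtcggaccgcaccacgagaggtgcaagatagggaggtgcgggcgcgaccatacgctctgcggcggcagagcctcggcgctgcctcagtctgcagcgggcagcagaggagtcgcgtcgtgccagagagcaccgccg
Ppfia3 (chr7:45366970-45367269, minus strand): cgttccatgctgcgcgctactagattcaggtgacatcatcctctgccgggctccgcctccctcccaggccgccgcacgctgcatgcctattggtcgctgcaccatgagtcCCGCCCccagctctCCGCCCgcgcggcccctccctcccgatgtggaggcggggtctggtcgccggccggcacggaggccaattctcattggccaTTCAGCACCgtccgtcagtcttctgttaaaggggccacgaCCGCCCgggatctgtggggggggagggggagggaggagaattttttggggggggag
Unc13a (chr8:71671708-71672007, minus strand): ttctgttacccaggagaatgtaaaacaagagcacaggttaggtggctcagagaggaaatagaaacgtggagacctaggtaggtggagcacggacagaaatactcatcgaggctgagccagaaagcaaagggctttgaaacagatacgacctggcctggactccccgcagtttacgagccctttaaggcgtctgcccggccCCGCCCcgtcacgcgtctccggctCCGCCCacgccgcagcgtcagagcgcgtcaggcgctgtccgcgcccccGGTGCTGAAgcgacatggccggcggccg
Ppfia2 (chr10:106470060-106470359, plus strand): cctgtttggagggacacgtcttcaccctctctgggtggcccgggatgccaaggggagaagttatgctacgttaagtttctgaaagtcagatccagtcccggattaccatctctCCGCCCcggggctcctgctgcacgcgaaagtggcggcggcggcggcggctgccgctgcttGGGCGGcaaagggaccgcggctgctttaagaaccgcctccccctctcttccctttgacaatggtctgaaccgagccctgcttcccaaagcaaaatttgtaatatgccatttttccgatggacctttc
The Syn1 window holds 1 RE1 match and 1 cAMP response element, while that of Ppfia2 holds 2 GC boxes and neither of the other motifs. These matches are letters in a window and do not show binding.

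Presynaptic transcripts differed little between TIMP2 KO and WT hippocampi. In edgeR's quasi-likelihood test, 1 of the 55 genes (1.82%), Ppfia2, passed an unadjusted p under 0.05, against 5.03% of all genes tested. It was lower in TIMP2 KO mice, where the background was 2.56% of genes, and 0 were higher, against 2.47%. After Benjamini-Hochberg adjustment over all genes 0 of 55 passed by edgeR, against 0.0546%, and the smallest adjusted p of the list was 0.928. By DESeq2 0 of 55 passed too, against 11 of 16486 genes, and the smallest adjusted p of the list was 0.865. At an unadjusted p under 0.05 the share of the list that passed was below that of all genes in the edgeR fit. It was above that of all genes in 3 of 44 fits. These were the fits with sex and surrogate variables (10.9% against 7.07%), in females alone (5.45% against 5%) and without mouse 14 (5.45% against 4.63%). The median log2 fold change (TIMP2 KO minus WT) of the 55 was 0.0055, beside 0.00011 for all genes, with 33 values above and 22 below 0.

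What these data allow for each gene is given by the 95% interval of its log2 fold change. The interval lay within -0.1 to 0.1 for 36 of 55 genes, and within -0.2 to 0.2 for 51. The other 4 were Slc17a6, Cplx3, Unc13c and Sv2c. The median half-width was 0.057 for the presynaptic genes and 0.088 over all genes. The values of TIMP2 KO and WT mice overlapped for all 55, and the share of all genes that overlapped is not given here. The estimates ran from -0.081 (Ppfia2) to 0.12 (Slc17a6), and the median absolute log2 fold change was 0.021 against 0.031 over all genes.

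**Figure D2:**
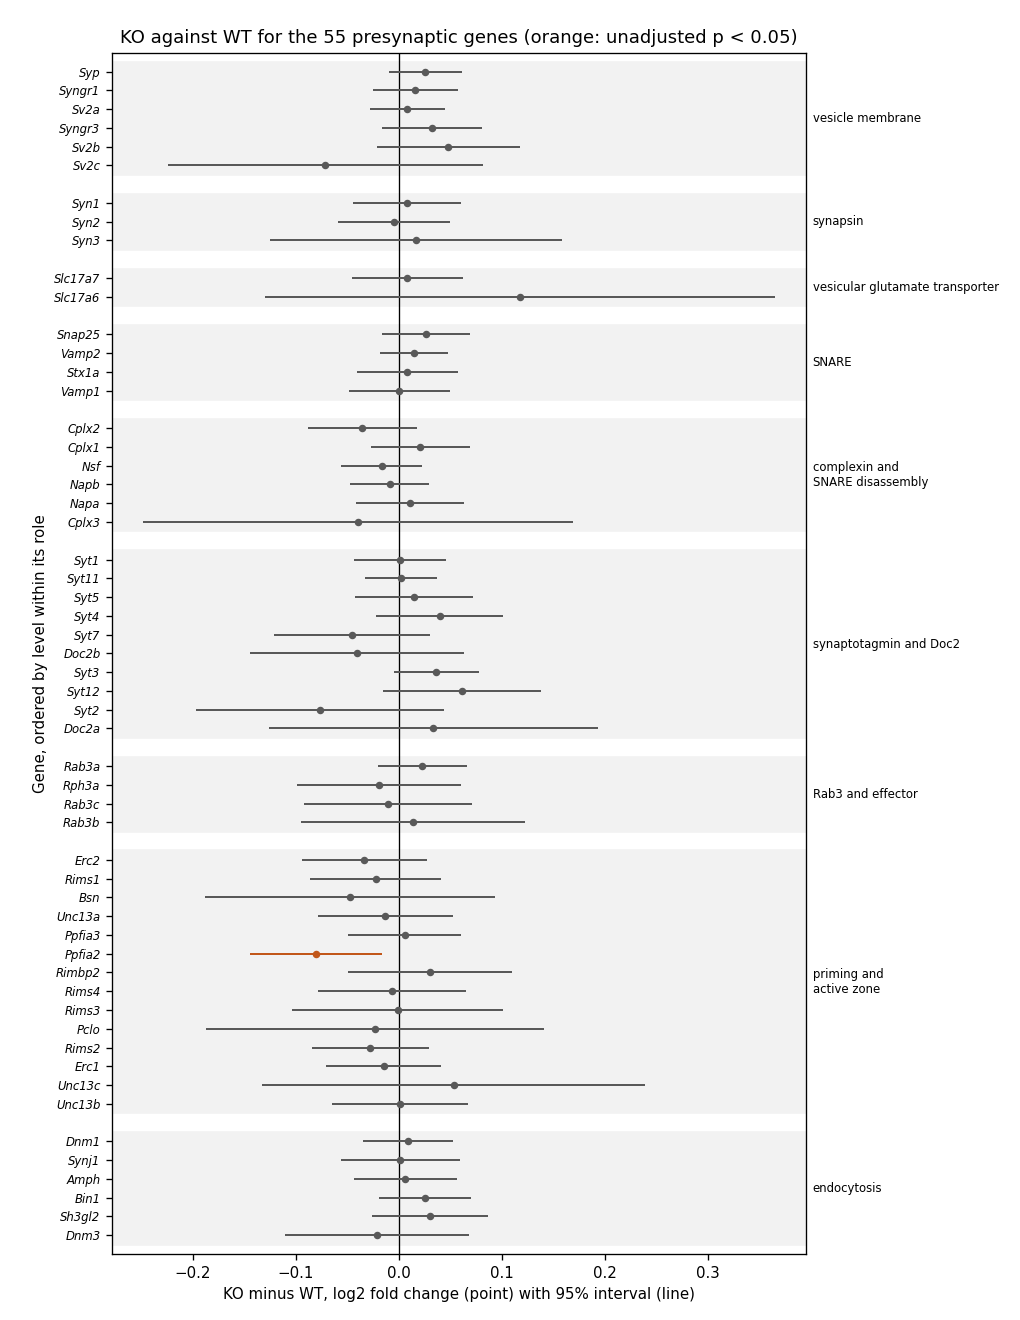
Log2 fold change of TIMP2 KO minus WT for each of the 55 genes (points) with its 95% interval (lines), from edgeR's quasi-likelihood test on 13 TIMP2 KO and 17 WT mice, with genes grouped by role and ordered by level. Only the interval of Ppfia2 (orange) lies wholly on one side of 0, from -0.14 to -0.017, and Slc17a6 has the widest one.

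Of the 6 vesicle membrane genes, 0 passed the test, and their median log2 fold change was 0.021. Syp ranged over 1005 to 1095 CPM (median 1046) in TIMP2 KO and 978 to 1089 CPM (median 1022) in WT mice. The estimate was 0.026 (95% interval -0.0087 to 0.06, p = 0.138), so the Syp transcript level in the tissue was bounded within a few percent. Its protein is a standard marker of presynaptic terminals, and neither the protein nor the terminals were measured here. Sv2b had the largest positive estimate of the role at 0.048 (95% interval -0.021 to 0.12, p = 0.164), and Sv2c the only negative one at -0.071 (95% interval -0.22 to 0.081, p = 0.348). Sv2c ranged over 16.6 to 30.3 CPM (median 22.6) in TIMP2 KO and 18.5 to 29.8 CPM (median 24) in WT mice. Sv2a, Syngr1 and Syngr3 had estimates of 0.0081, 0.016 and 0.032.

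Neither the synapsins nor the glutamate transporters passed. Syn1 lay at 454 to 540.3 CPM (median 497) in TIMP2 KO and 449.9 to 537 CPM (median 499) in WT mice, with a log2 fold change of 0.0077 (95% interval -0.044 to 0.059, p = 0.761). Syn2 was at 746 to 920.2 CPM (median 820.1) in TIMP2 KO and 763 to 895 CPM (median 843) in WT mice, with a log2 fold change of -0.0047 (95% interval -0.058 to 0.048, p = 0.859). Syn3, which is expressed early in neuronal development and in newborn granule cells, ranged over 8.24 to 11.6 CPM (median 9.71) in TIMP2 KO and 6.25 to 12.7 CPM (median 9.82) in WT mice, with a wider interval and a log2 fold change of 0.017 (95% interval -0.12 to 0.16, p = 0.808). For Slc17a7, the transporter of hippocampal pyramidal and granule cells, values spanned 1516 to 1753 CPM (median 1673) in TIMP2 KO and 1420.5 to 1739 CPM (median 1647) in WT mice, with a log2 fold change of 0.0081 (95% interval -0.045 to 0.061, p = 0.758). Slc17a6 varied most of all, over 9.78 to 25.3 CPM (median 18.3) in TIMP2 KO and 8.74 to 22.9 CPM (median 16.5) in WT mice, and its log2 fold change of 0.12 (95% interval -0.13 to 0.36, p = 0.341) was the least precise of the 55.

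The 4 SNARE genes were all bounded within -0.1 to 0.1. Their estimates were all at or above 0, from 0.00025 (Vamp1) to 0.026 (Snap25), and all 4 intervals lay between -0.048 and 0.068. Snap25 lay at 2323 to 2663 CPM (median 2491) in TIMP2 KO and 2221 to 2512 CPM (median 2451) in WT mice, with a log2 fold change of 0.026 (95% interval -0.015 to 0.068, p = 0.206). Vamp2 was at 936 to 1048 CPM (median 1004) in TIMP2 KO and 933 to 1022 CPM (median 991) in WT mice. Vamp1 was at 123 to 141 CPM (median 131) in TIMP2 KO and 118 to 144 CPM (median 132) in WT mice, with a log2 fold change of 0.00025 (95% interval -0.048 to 0.048, p = 0.992). The genotypes overlapped over almost the whole range for each. Stx1a had an estimate of 0.0084 (95% interval -0.04 to 0.056, p = 0.724).

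Among complexins and disassembly factors, Cplx2 was at 1831 to 2229 CPM (median 2093) in TIMP2 KO and 1927 to 2292 CPM (median 2101) in WT mice, with a log2 fold change of -0.036 (95% interval -0.087 to 0.016, p = 0.172). Cplx1 had the opposite sign at 0.021 (95% interval -0.026 to 0.068, p = 0.376), with values of 537 to 604 CPM (median 567) in TIMP2 KO and 514 to 603 CPM (median 563) in WT mice. Cplx3, a complexin of retina and deep cortical layers that is sparse in hippocampus, ranged over 3.93 to 9.2 CPM (median 5.92) in TIMP2 KO and 4.6 to 8.95 CPM (median 5.75) in WT mice and was poorly bounded, with a log2 fold change of -0.04 (95% interval -0.25 to 0.17, p = 0.701). Nsf lies on chromosome 11, 14.3 Mb from Timp2, and is the only 1 of the 55 within 20 Mb of the targeted gene. It was at 1219 to 1382 CPM (median 1297) in TIMP2 KO and 1229 to 1376 CPM (median 1327) in WT mice, with a log2 fold change of -0.017 (95% interval -0.055 to 0.021, p = 0.375). Napa and Napb had estimates of 0.011 and -0.009.

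None of the 10 calcium sensors and relatives passed, and their median log2 fold change was 0.0083. Syt1 was at 1474 to 1724 CPM (median 1572) in TIMP2 KO and 1477 to 1738 CPM (median 1579.6) in WT mice, with a log2 fold change of 0.0012 (95% interval -0.043 to 0.045, p = 0.956). The smallest p of the role was that of Syt3, a sensor with high calcium affinity, at 0.037 (95% interval -0.0034 to 0.076, p = 0.0716), with values of 62.8 to 71.4 CPM (median 66.4) in TIMP2 KO and 60.5 to 67.8 CPM (median 65.2) in WT mice. The largest estimates by size were those of Syt2 at -0.077 (95% interval -0.20 to 0.043, p = 0.203) and Syt12 at 0.061 (95% interval -0.014 to 0.14, p = 0.109), both of low level. Syt2 was at 24.6 to 36.8 CPM (median 29.7) in TIMP2 KO and 27 to 40.3 CPM (median 29.7) in WT mice. Syt7, Doc2b and Syt4 followed at -0.046, -0.041 and 0.04, and Syt5 and Syt11 were at 0.015 and 0.0019. Doc2a, the lowest of the role per length, was at 7.01 to 11.9 CPM (median 9.24) in TIMP2 KO and 7.35 to 13.3 CPM (median 9.01) in WT mice, with a log2 fold change of 0.033 (95% interval -0.13 to 0.19, p = 0.672). Exons of Doc2a share 39.35% of their length with Ino80e on the opposite strand, whose level was 26 ± 1.07 CPM in TIMP2 KO (n = 13) and 25 ± 1.25 CPM in WT mice (n = 17). Since the strand setting of the counting was not given in the sources used here, reads of this pair cannot be told apart.

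The Rab3 genes and Rph3a had estimates between -0.019 (Rph3a) and 0.023 (Rab3a), with Rab3c at -0.01. Rab3a was at 463 to 523 CPM (median 504) in TIMP2 KO and 451 to 521 CPM (median 494) in WT mice, with a log2 fold change of 0.023 (95% interval -0.019 to 0.065, p = 0.279). Rab3b, the least abundant of them, was at 36.6 to 57.2 CPM (median 48.9) in TIMP2 KO and 38.5 to 53 CPM (median 48.6) in WT mice, with a log2 fold change of 0.014 (95% interval -0.094 to 0.12, p = 0.8).

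Of the 14 priming and active zone genes, 1 (7.14%) was lower in TIMP2 KO mice at an unadjusted p under 0.05, against 2.56% of all genes, and 0 were higher, against 2.47%. None passed after adjustment. The role had a median log2 fold change of -0.014, with 10 estimates below and 4 above 0, where 50.2% of all genes were above 0. The vesicle-priming gene Unc13a was at 297 to 391 CPM (median 329) in TIMP2 KO and 302 to 361 CPM (median 328) in WT mice, with a log2 fold change of -0.013 (95% interval -0.077 to 0.051, p = 0.683). Bsn and Pclo, the largest scaffolds, had wide ranges of 332 to 514 CPM (median 401) in TIMP2 KO and 310.0 to 543 CPM (median 442) in WT mice, and of 153 to 239 CPM (median 171) in TIMP2 KO and 138 to 239 CPM (median 187) in WT mice, and their intervals were -0.19 to 0.093 and -0.19 to 0.14. With the 2 sets of mouse numbers as a covariate, the log2 fold change of Bsn was -0.010 (95% interval -0.092 to 0.071, p = 0.796 by edgeR). That of Pclo was above 0, at 0.023 (95% interval -0.075 to 0.12, p = 0.64 by edgeR). The split was noticed in the levels of these 2 genes, so narrower intervals follow from its choice. Erc2, the most abundant of the role, was at 272 to 328 CPM (median 296) in TIMP2 KO and 267 to 351 CPM (median 300.5) in WT mice, with a log2 fold change of -0.034 (95% interval -0.093 to 0.026, p = 0.26). Unc13b, the least abundant, was at 33.1 to 40.8 CPM (median 36.9) in TIMP2 KO and 34.1 to 41.9 CPM (median 36.9) in WT mice, with a log2 fold change of 0.0011 (95% interval -0.064 to 0.066, p = 0.973). Rims1, Rims2, Rims3 and Rims4 lay at -0.022, -0.028, -0.0012 and -0.0067, Erc1 at -0.015, and Rimbp2, which links RIM to calcium channels, at 0.031. Ppfia3 was at 0.0055.

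The 6 endocytic genes had estimates between -0.021 (Dnm3) and 0.03 (Sh3gl2, endophilin A1), and 0 passed. Dnm1, the dynamin that pinches off synaptic vesicles, was at 1243 to 1451 CPM (median 1306) in TIMP2 KO and 1215 to 1392 CPM (median 1326) in WT mice, with a log2 fold change of 0.0089 (95% interval -0.034 to 0.052, p = 0.674). For Synj1, the phosphatase that uncoats vesicles, the estimate was 0.0015 with equal medians of 552 CPM in both genotypes, and for Amph it was 0.0064. Dnm3, the least abundant of the role, was at 94.5 to 132 CPM (median 113) in TIMP2 KO and 102 to 136 CPM (median 112) in WT mice, with a log2 fold change of -0.021 (95% interval -0.11 to 0.067, p = 0.63). Bin1 was at 243 to 274 CPM (median 255) in TIMP2 KO and 234 to 269.7 CPM (median 253) in WT mice, with a log2 fold change of 0.026 (95% interval -0.018 to 0.07, p = 0.243).

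Ppfia2 encodes liprin-α2, a scaffold that organizes RIM, CASK and release sites at the active zone, and lies at chr10:106470339-106935952 on the plus strand of GRCm38. Its level was 183 to 223 CPM (median 211) in TIMP2 KO and 195 to 244 CPM (median 224) in WT mice. The ranges overlapped, but all 13 TIMP2 KO mice were below the WT median. The mean was 208 ± 10.3 CPM (SD, n = 13) in TIMP2 KO and 219.5 ± 14.9 CPM (SD, n = 17) in WT mice, a log2 fold change of -0.081 with a standard error of 0.031, or -5.43% (-9.5% to -1.17%). By edgeR's quasi-likelihood test p was 0.0144 and the adjusted p 0.928, so the difference failed the correction over all genes.

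The difference in Ppfia2 passed an unadjusted p under 0.05 in females and not in males. In females the values were 199 to 215 CPM (median 205) in TIMP2 KO and 208 to 244 CPM (median 224) in WT mice, with a log2 fold change of -0.13 (p = 0.00177, adjusted p = 0.77). Males ranged over 183 to 223 CPM (median 212) in TIMP2 KO and 195 to 230.3 CPM (median 224) in WT mice, and their estimate was -0.045 (p = 0.343). The sexes were not shown to differ in this effect (interaction -0.082, p = 0.193). Leaving out each mouse in turn kept the p of Ppfia2 under 0.05 in 30 of 30 cases, with estimates between -0.091 and -0.066.

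The estimate for Ppfia2 was also larger in the mice with higher numbers. In mice 1 to 12 it was at 183 to 215 CPM (median 206) in 6 TIMP2 KO and 195 to 225 CPM (median 203) in 6 WT mice, with a log2 fold change of -0.016 (95% interval -0.11 to 0.079, p = 0.732 by edgeR). In mice 14 to 32 it was at 201 to 223 CPM (median 211) in 7 TIMP2 KO and 203 to 244 CPM (median 228) in 11 WT mice, with a log2 fold change of -0.11 (95% interval -0.17 to -0.042, p = 0.00222 by edgeR). The sets were not shown to differ in this effect (difference -0.091, 95% interval -0.20 to 0.02, p = 0.104 by edgeR). With the set as a covariate the log2 fold change was -0.069 (p = 0.0166 by edgeR).

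The level of Ppfia2 moved with the granule cell markers over the mice. The mean log2 CPM of the 12 dentate gyrus granule cell genes was 5.67 ± 0.106 in TIMP2 KO (n = 13) and 5.78 ± 0.145 in WT mice (n = 17), and its correlation with the log2 CPM of Ppfia2 over 30 mice was r = 0.79 (permutation p = 1e-05, the smallest that 100000 resamples can give) and rho = 0.70 (permutation p = 3e-05). Without the 2 mice farthest from the median of the list r came to 0.68. The TIMP2 KO mice alone gave r = 0.77 and the WT mice alone r = 0.74. Within mice 1 to 12 r was 0.61 (permutation p = 0.0351), and within mice 14 to 32 it was 0.80 (permutation p = 5e-05). With the mean of the list as a covariate, the log2 fold change of Ppfia2 was -0.024 (95% interval -0.075 to 0.026, p = 0.334). This pair and this covariate were chosen after the values of Ppfia2 were seen, and the part of the granule cell list in the result was not otherwise tested. Exons of Ppfia2 share 24.5% of their length with C230021G24Rik and Acss3 on the opposite strand, both far below Ppfia2 (2.53 and 2.66 CPM for the former and 0.936 and 1.03 CPM for the latter in TIMP2 KO and WT mice).

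A further 65 presynaptic genes outside the list, among them syntaxin-binding proteins, clathrin and AP2 subunits, proton pump subunits, synucleins and other Rab3 and synaptotagmin genes, were tested in the same way. Of these, 2 (3.08%) were lower in TIMP2 KO mice at an unadjusted p under 0.05, against 2.56% of all genes, and 0 were higher, against 2.47%. The count was 0 without any 1 of mice 5, 10, 16, 19 or 21, and 1 without any 1 of mice 1, 18, 20, 22, 23, 24, 25 or 31. None of the 65 passed after adjustment, and the median log2 fold change was -0.0031. Syt10, a further synaptotagmin, was at 5.1 to 9.01 CPM (median 6.89) in TIMP2 KO and 5.91 to 9.55 CPM (median 7.67) in WT mice, with overlapping ranges. Its log2 fold change was -0.17 (95% interval -0.32 to -0.014, p = 0.0335). Lin7c, a partner of CASK in the scaffold that liprins join, was at 141 to 161 CPM (median 152) in TIMP2 KO and 145 to 173 CPM (median 157) in WT mice, with a log2 fold change of -0.053 (95% interval -0.10 to -0.0022, p = 0.0414).

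The 3 synapsin genes each contain a TIMP gene within their bounds on the opposite strand, Timp1 inside Syn1, Timp4 inside Syn2 and Timp3 inside Syn3. These are relatives of the deleted gene, and their reads can meet those of the synapsins where exons overlap. Timp3 was at 62.3 ± 4.29 CPM in TIMP2 KO (n = 13) and 62.3 ± 4.52 CPM in WT mice (n = 17), above Syn3 itself, and shares 14.1% of the exon length of Syn3. Timp4 was at 38.4 ± 2.67 CPM in TIMP2 KO and 39.9 ± 3.14 CPM in WT mice, with 1.28% of the exon length of Syn2. Timp1 had at most 12 counts in any mouse. The level of Syn3 is therefore uncertain, since reads on the shared exons cannot be told apart. In all, 22 of the 55 genes shared some exon length with a gene on the opposite strand.

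The study sequenced both sexes, so females (n = 14) were compared with males (n = 16) with genotype as a covariate. Of the 55 genes, 7 (12.7%) passed an unadjusted p under 0.05, against 9.77% of all genes. The direction was uneven, since 6 were lower in females, where the background was 4.63%, and 1 was higher, against 5.14%. Of the 65 other presynaptic genes, 5 were lower in females, against 4.63% of all genes, and 4 were higher, against 5.14%, with 0 passing after adjustment. Their median log2 difference (female minus male) was -0.014, beside -0.0067 for the 55 and 0.0007 for all genes. After adjustment 0 of 55 passed, against 0.218%, and the smallest adjusted p by edgeR was 0.187. The values of the sexes overlapped for all 55 genes, and the share of all genes that overlapped is not given here.

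Sv2c, the vesicle glycoprotein of basal ganglia and some interneurons, at chr13:95954594-96132577, was the gene higher in females. Its level was 18.1 to 30.3 CPM (median 24.9) in females and 16.6 to 26.3 CPM (median 21.8) in males, and 12 of 14 females were above the male median. The log2 difference (female minus male) was 0.22 (95% interval 0.09 to 0.36, p = 0.00168). Slc17a7 was lower in females, at 1420.5 to 1692 CPM (median 1609) in females and 1529 to 1753 CPM (median 1674) in males, with 12 of 14 females below the male median and a log2 difference of -0.071 (95% interval -0.12 to -0.022, p = 0.00538). Ppfia3 (liprin-α3) was at 176 to 194 CPM (median 181) in females and 171 to 217 CPM (median 192) in males, also with 12 of 14 females below the male median, and differed by -0.068 (95% interval -0.12 to -0.019, p = 0.0079). Cplx1 was at 514 to 581 CPM (median 551) in females and 515 to 604 CPM (median 573) in males, where 13 of 14 females were below the male median, with a log2 difference of -0.058 (95% interval -0.10 to -0.015, p = 0.0103). For these 4 genes p stayed under 0.05 when each mouse was left out in turn. With the set of mouse numbers as a covariate all 7 genes passed. Within mice 1 to 12 (6 females, 6 males) p was under 0.05 for Ppfia3 and Syngr3 of the 7, and within mice 14 to 32 (8 females, 10 males) for Sv2c, Slc17a7 and Cplx1. Sv2c differed by 0.17 (p = 0.104) and 0.26 (p = 0.00109) in these sets, by edgeR.

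The other 3 were nearer to the threshold and lost it when some single mice were left out. Syngr3, a vesicle protein that binds the dopamine transporter, was at 141 to 156 CPM (median 146) in females and 134 to 165 CPM (median 153) in males, a log2 difference of -0.047 (95% interval -0.092 to -0.0023, p = 0.0398), and kept p under 0.05 in 16 of 30 cases. Syt1 was at 1474 to 1637 CPM (median 1552) in females and 1513 to 1738 CPM (median 1590.2) in males, a log2 difference of -0.044 (95% interval -0.087 to -0.0011, p = 0.0446), kept in 17 of 30. Amph (amphiphysin) was at 253 to 304 CPM (median 279) in females and 274 to 308 CPM (median 289) in males, a log2 difference of -0.049 (95% interval -0.095 to -0.0023, p = 0.0403), kept in 18 of 30. The mice whose removal ended the call were 1, 3, 5, 10, 11, 12, 14, 16, 19, 20, 21, 24, 26, 32 for Syngr3, 3, 4, 8, 9, 11, 15, 19, 20, 21, 23, 24, 29, 32 for Syt1 and 5, 6, 11, 12, 15, 19, 20, 23, 25, 29, 30, 32 for Amph (numbers as in the labels), with p up to 0.0883, 0.0969 and 0.0986.

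Some cell type and activity lists also had several genes that differed between the sexes. At an unadjusted p under 0.05, 4 of 12 granule cell genes, 10 of 15 immediate early genes, 3 of 7 astrocyte genes and 2 of 9 striatum genes were higher in females, against 5.14% of all genes. Lower in females were 2 of 9 CA1 genes, 2 of 9 CA3 genes and 3 of 12 interneuron genes, against 4.63%, with 1 interneuron gene higher. No other marker list had more than 1 gene in either direction. The summed level of the striatum list was 159 to 176 CPM in females and 158 to 180.0 CPM in males, and its part in the result for Sv2c was not tested. The mean log2 CPM of the granule cell list was 5.78 ± 0.16 in females (n = 14) and 5.7 ± 0.11 in males (n = 16). With that mean as a further covariate, chosen after the data were seen, Sv2c (p = 0.0243), Slc17a7 (p = 0.00603) and Ppfia3 (p = 0.0358) still passed, and Cplx1 (p = 0.0895), Syngr3, Syt1 and Amph did not, while Erc2 and Syt5 passed in addition.

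**Figure D3:**
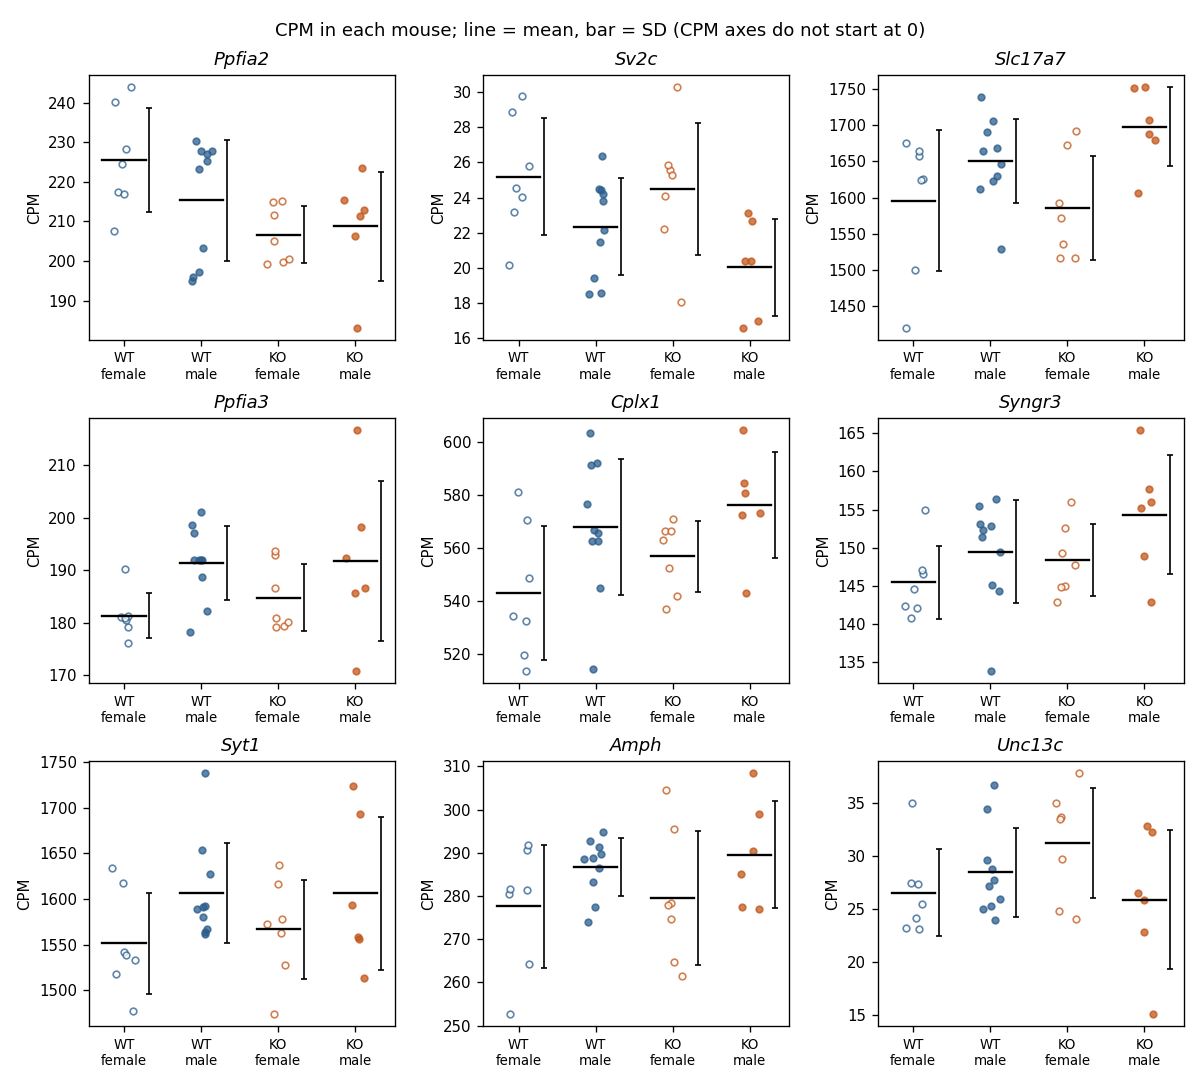
CPM of 9 presynaptic genes in each mouse, by genotype (blue WT, orange TIMP2 KO) and sex (open female, filled male), with the mean as a line and the SD as a bar (7 WT females, 10 WT males, 7 TIMP2 KO females, 6 TIMP2 KO males). All TIMP2 KO mice lie below the WT median of Ppfia2 (224 CPM), females lie higher than males for Sv2c and lower for Slc17a7, Ppfia3 and Cplx1, and 1 TIMP2 KO male has the lowest Unc13c at 15 CPM.

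Whether the genotype effect differed between sexes was tested as an interaction. Of the 55 genes, 1 (1.82%) passed an unadjusted p under 0.05, against 2.57% of all genes, and 0 passed after adjustment. It was Unc13c (Munc13-3), a priming factor best known from the cerebellum, at chr9:73479422-73968966. In females it was at 24 to 37.8 CPM (median 33.5) in TIMP2 KO and 23.1 to 35 CPM (median 25.5) in WT mice. In males it was at 15 to 32.8 CPM (median 26.2) in TIMP2 KO and 23.9 to 36.7 CPM (median 27.5) in WT mice. The log2 fold change was 0.24 (p = 0.0303) in females and -0.14 (p = 0.262) in males, and their difference 0.38 (95% interval 0.02 to 0.74, p = 0.0389). Groups overlapped within each sex. Leaving out 1 mouse kept this p under 0.05 in 18 of 30 cases, and it was lost without any 1 of mice 4, 5, 7, 9, 10, 11, 18, 21, 25, 26, 28, 30, with p up to 0.0961. By DESeq2 the difference was 0.37 with p = 0.0515, and with the set of mouse numbers as a covariate in edgeR it was 0.36 with p = 0.052, so both ended the call.

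For 8 of these genes, whose expression in the brain is known to depend on cell type or region, the level in each mouse was set against the mean log2 CPM of a list of marker genes, over all 30 mice, with 2-sided permutation tests adjusted over the 8 pairs. Bin1 encodes amphiphysin 2, which both neurons and oligodendrocytes express, and rose with the oligodendrocyte list, with r = 0.59 (rho = 0.51, permutation p = 0.00052 and 0.00449, adjusted 0.00416 and 0.0359). Without the 2 mice farthest from the median of the list r was 0.48 (p = 0.00969). Within genotypes it was 0.49 (p = 0.084) in TIMP2 KO and 0.63 (p = 0.00613) in WT mice, and by mouse number it was 0.70 (permutation p = 0.0133) in mice 1 to 12 and 0.50 (permutation p = 0.036) in mice 14 to 32. Neither the list (0 of 10 genes) nor Bin1 passed the test between genotypes.

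The correlations of Cplx1 and Cplx3 had a smaller r than that of Bin1, and their values within TIMP2 KO and within WT mice lay farther apart. Differences between correlations were not tested. Cplx1, the complexin of fast interneurons as well as pyramidal cells, had r = 0.47 (rho = 0.43, permutation p = 0.00902 and 0.02, adjusted 0.0274 and 0.0534) with the interneuron list. This fell to 0.36 (p = 0.0585) without 2 mice, and taken separately TIMP2 KO mice gave 0.23 and WT mice 0.56, and mice 1 to 12 gave 0.75 and mice 14 to 32 0.30. Cplx1 was lower in females, and the mean of the interneuron list was 6.56 ± 0.063 in females and 6.59 ± 0.066 in males. Sex was not fitted in the correlations, and its part in this one was not tested. Cplx3 with the neocortex list had r = 0.46 (rho = 0.43, permutation p = 0.0103 and 0.0179, adjusted 0.0274 and 0.0534). It was 0.32 (p = 0.0985) without 2 mice, 0.65 in TIMP2 KO mice alone and 0.15 in WT mice alone, and 0.36 in mice 1 to 12 and 0.56 in mice 14 to 32. The other 5 pairs had an adjusted p over 0.05: r was 0.041 for Slc17a6 with the thalamus and habenula list, -0.26 for Slc17a7 with the CA1 list, 0.26 and -0.16 for Syt2 and Vamp1 with the interneuron list, and -0.24 for Sv2c with the striatum list.

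**Figure D4:**
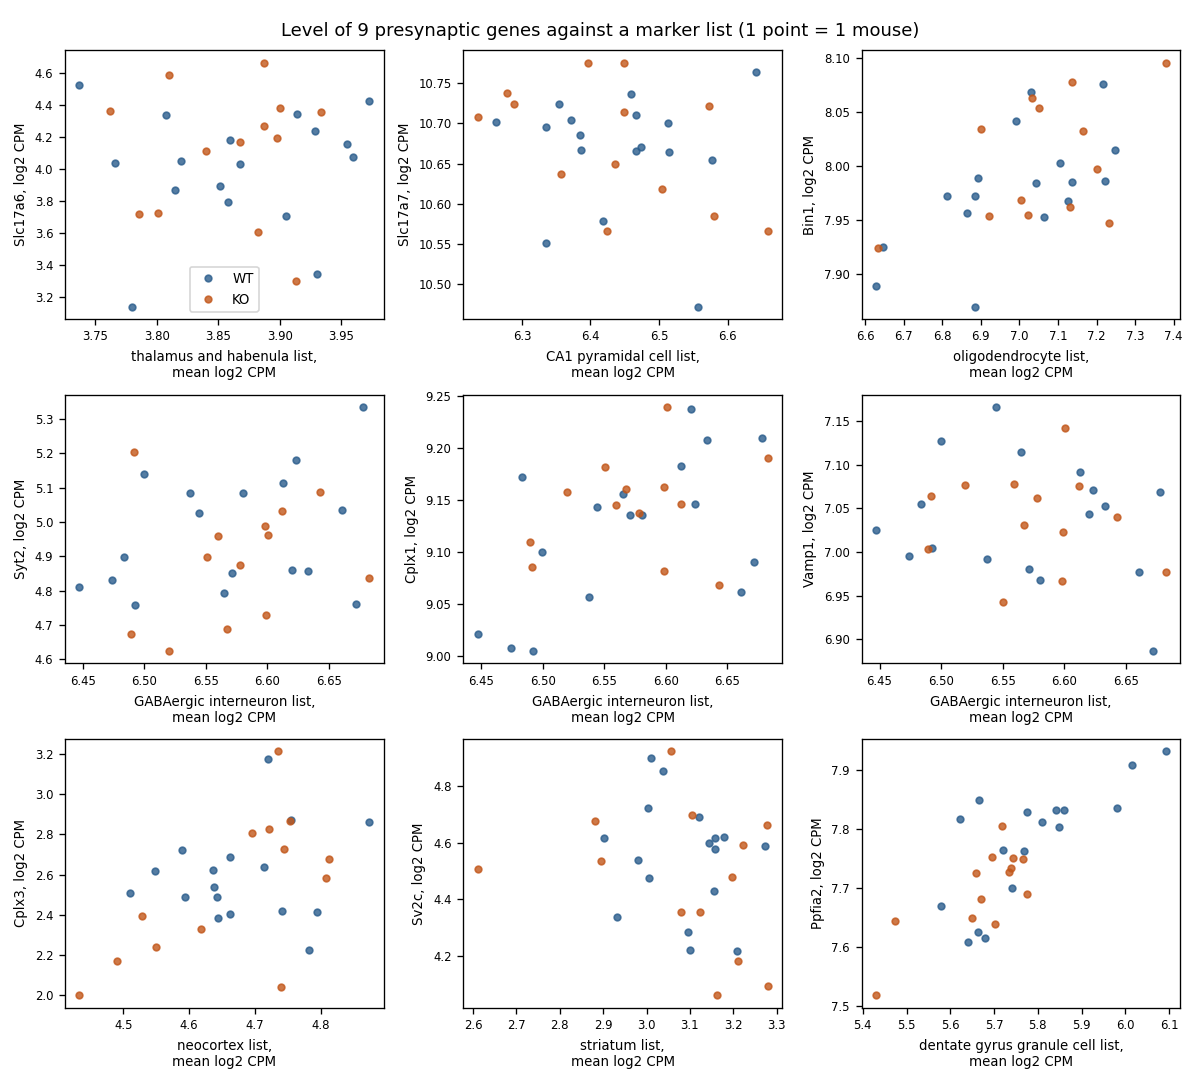
Log2 CPM of 9 presynaptic genes against the mean log2 CPM of a marker list, with 1 point per mouse (blue WT, n = 17, orange TIMP2 KO, n = 13). Ppfia2 follows the dentate gyrus granule cell list most closely (r = 0.79), Bin1 the oligodendrocyte list less so (r = 0.59), and Slc17a6 shows no trend with the thalamus and habenula list (r = 0.041).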

How the data were processed

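Hippocampal RNA of 30 mice (13 TIMP2 KO, 17 WT) was sequenced from poly(A)-selected libraries with paired-end reads. The authors deposited raw counts per gene and mouse, without normalization. Per the submitters' processing notes, these came from Trimmomatic 0.36, STAR 2.5.2b and featureCounts of Subread 1.5.2 on GRCm38. The strand setting was not given in the sources used here. The labels gave genotype and sex, and all 30 columns matched a mouse by title.

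Counts were scaled by TMM, filtered with filterByExpr (16486 genes) and tested with edgeR 4.0.16 (quasi-likelihood test) in R 4.3.3, without covariates for genotype, with genotype as a covariate for sex, and with an interaction term. P-values were adjusted over all genes tested by Benjamini-Hochberg. Log2 CPM used a prior count of 2. Exon lengths and positions were from GENCODE M21, and promoters from RefSeq. Correlations used 100000 permutations in Python 3.11.15. Totals were 18345517 to 41081083 counts, and the median biological coefficient of variation was 7.1%. The share of counting error in the spread of the genes with the lowest counts was not measured.

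The genes and lists were chosen with earlier results of these data known. Every one of the 55 was accounted for. Full values were given for those passing a test, the highest and lowest level per length in each of 9 roles, the 8 genes set against a marker list, those within 20 Mb of Timp2, and the other presynaptic genes that passed. Alternatives were DESeq2 1.42.0, RLE factors, other filters, sex as a covariate, sva 3.50.0 surrogate variables, each sex alone, limma 3.58.1 voom weights and leaving out each mouse. The granule cell list as a covariate, its correlation with Ppfia2, leaving out each mouse for sex and interaction, and the split of the mice by number were added after the data were seen. The fits were tested on simulated data. Separate mice were the replicates.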

Additional observations from a re-analysis of the deposited data

Results flagged for a closer look

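In 220 groups of 6 to 10 mice (55 genes in each sex of each genotype), 12 values in 9 mice lay far from the rest of their group by Dixon's criterion at 95%, where chance alone would give about 11 of 220. Each is given as the log2 CPM of the mouse against the range of the other mice of its group, and no cause was tested.

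Of the SNARE genes, Vamp2 was high in mouse 8, a TIMP2 KO female (10.03 against 9.93 to 9.97), and low in mouse 14, a TIMP2 KO male (9.87 against 9.95 to 10.00), and in mouse 6, a WT male (9.87 against 9.94 to 10.00). Snap25 was also low in mouse 6 (11.15 against 11.22 to 11.29). Since Vamp2 was the least variable gene of the 55, these are small departures in CPM. Among vesicle genes, Syngr3 was low in mouse 31, a WT male (7.06 against 7.17 to 7.29). Syn2 was low in mouse 7, a WT male (9.58 against 9.69 to 9.81), and Syn3 high in mouse 30, a TIMP2 KO female (3.54 against 3.18 to 3.31).

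Cplx3 was high in mouse 7 (3.17 against 2.23 to 2.72). Mouse 23, a WT female, was low for Napa (7.74 against 7.94 to 8.05) and high for Unc13c (5.13 against 4.54 to 4.78). Bsn was low in mouse 4, a WT female (8.28 against 8.66 to 8.90), and Ppfia3 high in mouse 28, a WT female (7.57 against 7.46 to 7.50).

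The genotype effect on Unc13c differed between the sexes at an unadjusted p under 0.05, by 0.38 on the log2 scale (females minus males, 95% interval 0.02 to 0.74, p = 0.0389 by edgeR). It did not pass after adjustment over all genes, and by DESeq2 its unadjusted p was 0.0515.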

How the results depend on the processing

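No gene of the 55 passed the adjusted test between genotypes in any of the 44 fits, where the smallest adjusted p was 0.493, nor between the sexes in any of 39 fits, where it was 0.0869. No called direction turned. Ppfia2 kept p under 0.05 in 40 of 43 alternatives, with estimates from -0.13 to -0.016, and missed it in males alone, in mice 1 to 12 alone and with the granule cell list as a covariate (the last pair chosen after the data were seen). The number of presynaptic genes passing between genotypes, 1, was the same with DESeq2, RLE size factors and both other filters. It was 2 with sex as a covariate (Syt3 added), 6 with sex and 8 surrogate variables (Sh3gl2, Sv2b, Syp, Syt12 and Syt2 added), 3 in females alone (Syt4 and Unc13c added), 0 in males alone, 3 with voom weights (Syp and Syt7 added), 0 with the granule cell covariate and 0 in mice 1 to 12. All genes passed at 7.07% with the surrogate variables and at 3.24% in males alone. Leaving out 1 mouse gave 1 to 3, with 2 without mouse 1, 3 or 9 and 3 without mouse 14 or 18. Of the other presynaptic genes, 5 passed with the surrogate variables, 0 in males alone, 1 with the granule cell covariate, 1 with the mouse number set as a covariate, 0 in mice 1 to 12 and 0 to 4 leaving out 1 mouse (0 without mouse 5, 10, 16, 19 or 21, and 4 without mouse 11). The median log2 fold change of the 55 lay between -0.0018 and 0.01 leaving out 1 mouse. Between the sexes 7 genes passed with DESeq2, RLE factors and both other filters, 5 with the granule cell covariate, 5 in mice 1 to 12 (Cplx3, Rab3b and Vamp1 added), 3 in mice 14 to 32 and 4 to 7 leaving out 1 mouse (4 without mouse 11, 19, 20 or 32). The interaction called 0 genes with DESeq2, 0 with the mouse number set as a covariate, 2 without a filter (Rims3 added) and 0 to 2 leaving out 1 mouse. The correlation of Bin1 was 0.49 and that of Cplx1 0.23 within TIMP2 KO mice, and that of Cplx3 0.15 within WT mice, all with p over 0.05. By mouse number, that of Cplx1 was 0.30 in mice 14 to 32 and that of Cplx3 0.36 in mice 1 to 12, while that of Slc17a6 (-0.31 in mice 14 to 32) and that of Slc17a7 (0.063 in mice 1 to 12) changed sign. The cause of these changes was not tested. Every mouse number is used once and the labels do not give litters, so no paired analysis was possible and litter was not fitted. The least covered of these genes, Cplx3, had at least 81 counts, and counting error was not separated from the spread between mice. Harvest dates, which the study used in its network analysis, are not in the labels and were not fitted.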

Other observations

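Ppfia2 levels in the 10 WT males fell into 2 ranges, with 4 mice between 195 and 203 CPM and 6 between 223 and 230.3 CPM, and no mouse between. Of the 4 lower ones, 3 were among mice 1 to 12, and of the 6 higher ones 5 were among mice 14 to 32. The 7 WT females ranged from 208 to 244 CPM. Synpr, which encodes synaptoporin, a vesicle protein known from mossy fibre terminals of granule cells, was not among the 55 genes and was chosen here after its values were seen. It was at 180.4 to 229 CPM (median 211) in TIMP2 KO and 197 to 258 CPM (median 218) in WT mice, with a log2 fold change of -0.071 (95% interval -0.14 to 0.0023, p = 0.0572 by edgeR) between genotypes and 0.095 (p = 0.00574) for females minus males.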
